A study of Mus musculus with 6 samples.

Results

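This report describes 10 genes for proteins of the sarcomeric Z-disc and of its response to mechanical stress, Ankrd2, Ankrd23, Csrp3, Tcap, Actn2, Actn3, Ldb3, Myoz1, Myoz2 and Myot, among 20950 entries in an expression table of C2C12 cells, an established line of mouse myoblasts whose cells join into multinucleated myotubes in low serum. The genes were found in the table by symbol, and all 10 were listed once. They were chosen from results of these same libraries, in which most of them were lower when exosomes were added to 0.2% FBS. Differences that involve a 0.2% FBS library are therefore given as a description, with no test, although the spread between the libraries of 0.2% FBS + exosome is the only error available for the limma tests of other conditions.

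Messenger RNA was sequenced in 6 libraries of 5 conditions. In 1 library the cells were kept in growth medium with 10% FBS (fetal bovine serum). The others were differentiated in 2% HS (horse serum), 2% HS + exosome, 0.2% FBS or 0.2% FBS + exosome, with 1 library each except for 0.2% FBS + exosome, which had replicates 1 and 2. Exosomes, which are small vesicles released by cells, had been isolated from FBS with commercial kits, and all libraries come from this single line. The labels do not say that the libraries are from separate cultures, so the spread between replicates may be technical. Expression is given as FPKM, fragments per kilobase of transcript scaled to the number of mapped fragments, which can be compared between genes because it is divided by length. Differences are given on the scale of log2(FPKM + 1), and a difference above 1 or below −1 was taken as past the fold threshold. This threshold was applied to the 10731 entries with a mean of at least 1 FPKM, 9 of the 10 genes among them. Myot stayed below that mean.

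The Z-disc anchors the actin filaments of neighbouring sarcomeres and holds the ends of the giant protein titin. Alpha-actinin cross-links actin there and is the docking site of PDZ-LIM proteins, myozenins and myotilin, while telethonin joins titin molecules and muscle LIM protein. Several of these proteins are known as sensors of stretch, and the ankyrin repeat proteins that bind titin can move to the nucleus of strained muscle.

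Skeletal muscle markers were present in all 6 libraries, the growth medium library included, where Myog was at 512 FPKM, Myh3 at 738 and Ckm at 356. Differences from 10% FBS are therefore differences from cells that already held transcripts of differentiated muscle. The summed level of the 7 muscle markers listed was 2475 FPKM in 10% FBS, 4300 in 2% HS, 4014.5 in 2% HS + exosome and 4283 in 0.2% FBS. It was 2261 and 1903 in the libraries of 0.2% FBS + exosome, so the sum moved with the Z-disc genes, and its part in their differences was not tested. Single markers did not all follow the sum. With exosomes in 0.2% FBS, 2 of the 7 (Myh3 at −1.58 and Ckm at −1.13) were lower past a log2 difference of 1, beside 2.25% of all entries. Replicate 1 alone placed 1 of the 7 lower past it, with 183 of all 10731 entries. Replicate 2 alone placed 2, with 305 of all entries. The median of the 7 for the mean of both libraries was −0.82, beside 0.14 for all entries. The other markers of this list were Myog (−0.82), Des (−0.92), Myod1 (−0.23) and Cdh15 (0.29). Myf5, a factor of undifferentiated myoblasts, went the other way, by 0.79 in replicate 1 and 1.12 in replicate 2, and it was 1.05 lower in 0.2% FBS than in 10% FBS. Fewer differentiated cells and less RNA per cell cannot be told apart in such bulk samples. Sums were at most 1.62 FPKM over 5 adipocyte markers, 0.351 over 4 osteoblast markers and 0.284 over 4 endothelial markers, with Cfd, Cidec, Kdr and the leukocyte marker Emr1 at 0 in every library. The 5 cardiac markers summed to 8.60 FPKM in 10% FBS, 9.77 in 2% HS, 13.6 in 2% HS + exosome, 15.2 in 0.2% FBS and 6.96 in replicate 1 of 0.2% FBS + exosome, with replicate 2 nearly equal to it and Myl7 at 0 in every library. This sum too was lower with exosomes in 0.2% FBS, where 1 of the 3 cardiac markers above the minimum (Myh6 at −1.15) was past the threshold and their median was −0.77, and its part in the differences was not tested. Read depth was estimated from the steps between low FPKM values at 33700000 to 39400000 reads per library.

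Promoter sequence is shown for 5 genes, those with the lowest values relative to control when exosomes were added to 0.2% FBS (Ankrd2, Csrp3 and Actn2), an intermediate one (Myoz2) and one that differed less (Ldb3). Each line holds the 150 bases before the RefSeq start site on GRCm38.p6, 5′ to 3′ on the strand of the gene. Capitals mark E-boxes (CANNTG, the class of motif bound by myogenic bHLH factors), the TATAAA box, the MEF2 motif and the CArG box bound by serum response factor, none of which overlap here.
Ankrd2 (chr19:42035877-42036026, plus strand): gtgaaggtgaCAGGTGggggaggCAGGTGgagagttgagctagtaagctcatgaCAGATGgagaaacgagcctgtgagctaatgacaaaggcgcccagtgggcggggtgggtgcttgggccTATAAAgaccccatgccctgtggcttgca
Csrp3 (chr7:48848052-48848201, minus strand): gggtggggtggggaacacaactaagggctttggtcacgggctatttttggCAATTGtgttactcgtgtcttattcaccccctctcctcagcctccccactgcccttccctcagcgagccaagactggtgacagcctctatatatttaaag
Actn2 (chr13:12340733-12340882, minus strand): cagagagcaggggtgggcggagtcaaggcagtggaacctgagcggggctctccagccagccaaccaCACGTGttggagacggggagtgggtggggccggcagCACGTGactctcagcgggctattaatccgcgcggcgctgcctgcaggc
Myoz2 (chr3:123034988-123035137, minus strand): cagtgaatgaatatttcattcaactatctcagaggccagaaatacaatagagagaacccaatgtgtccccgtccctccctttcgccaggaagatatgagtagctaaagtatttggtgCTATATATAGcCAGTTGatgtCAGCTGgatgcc
Ldb3 (chr14:34588682-34588831, minus strand): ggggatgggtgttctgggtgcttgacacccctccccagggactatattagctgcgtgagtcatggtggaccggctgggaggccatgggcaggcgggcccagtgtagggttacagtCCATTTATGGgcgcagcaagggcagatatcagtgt

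Promoter windows were searched for 6 of the 10 genes, with Ankrd23 the one not shown. Myot was left out beforehand, so whether it had a window is not given. Both strands of the 300-base windows, which run from 250 bases before to 50 after the start site, were searched for these motifs and for the MCAT motif (CATTCC). Ankrd23, Csrp3 and Ldb3 had 2 windows each, and only the one nearest the RefSeq start of the gene was searched. The background counts all windows, alternative ones included. E-boxes were found in 4 of the 6 windows and in 72.3% of all 32851 windows, so holding one is common among promoters. Ankrd2 carried E-boxes starting 140, 127 and 96 bases before its start site and a TATAAA box at 29 bases. Csrp3 had 4 E-boxes before its start site, at 239, 214, 191 and 100 bases. Both E-boxes shown for Actn2 had the letters CACGTG, at 84 and 48 bases. The MEF2 motif of Myoz2, 33 bases before its start site, was the only MEF2 match, against 1.86% of all windows. The CArG box of Ldb3, 35 bases before its start site, was the only CArG match, against 1.63% of all windows. TATAAA occurred in 13.6% of all windows and MCAT in 14.7%, and the latter was found among the 6 only in the window of Ankrd23. These matches describe the letters of the windows and not binding.

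In 0.2% FBS, 8 of the 9 genes measured above the minimum were lower by more than 1 on the log2 scale with exosomes, taking the mean of both exosome libraries. Of all entries, 2.25% were lower by that much, but the genes were chosen from this contrast and nothing is read from the count. The order ran from Ankrd2 at −3.01 and Csrp3 at −2.53 through Actn2 at −2.10, Tcap at −1.80 and Myoz2 at −1.58 to Ankrd23 at −1.12, Ldb3 at −1.09 and Actn3 at −1.03. The last 3 lay just inside the threshold. Outside it were Myoz1 at −0.25 and Myot at −0.19. The median of the 9 genes was −1.58, beside 0.14 for all 10731 entries. Exosome replicate 1 alone placed 6 of the genes past the threshold, with 183 of all 10731 entries, and replicate 2 alone placed 8, with 305 of all entries, since Ankrd23 (−0.93) and Ldb3 (−0.98) fell short in replicate 1. Those 6 genes passed in each library, as did 1.61% of all entries.

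**Figure D1:**
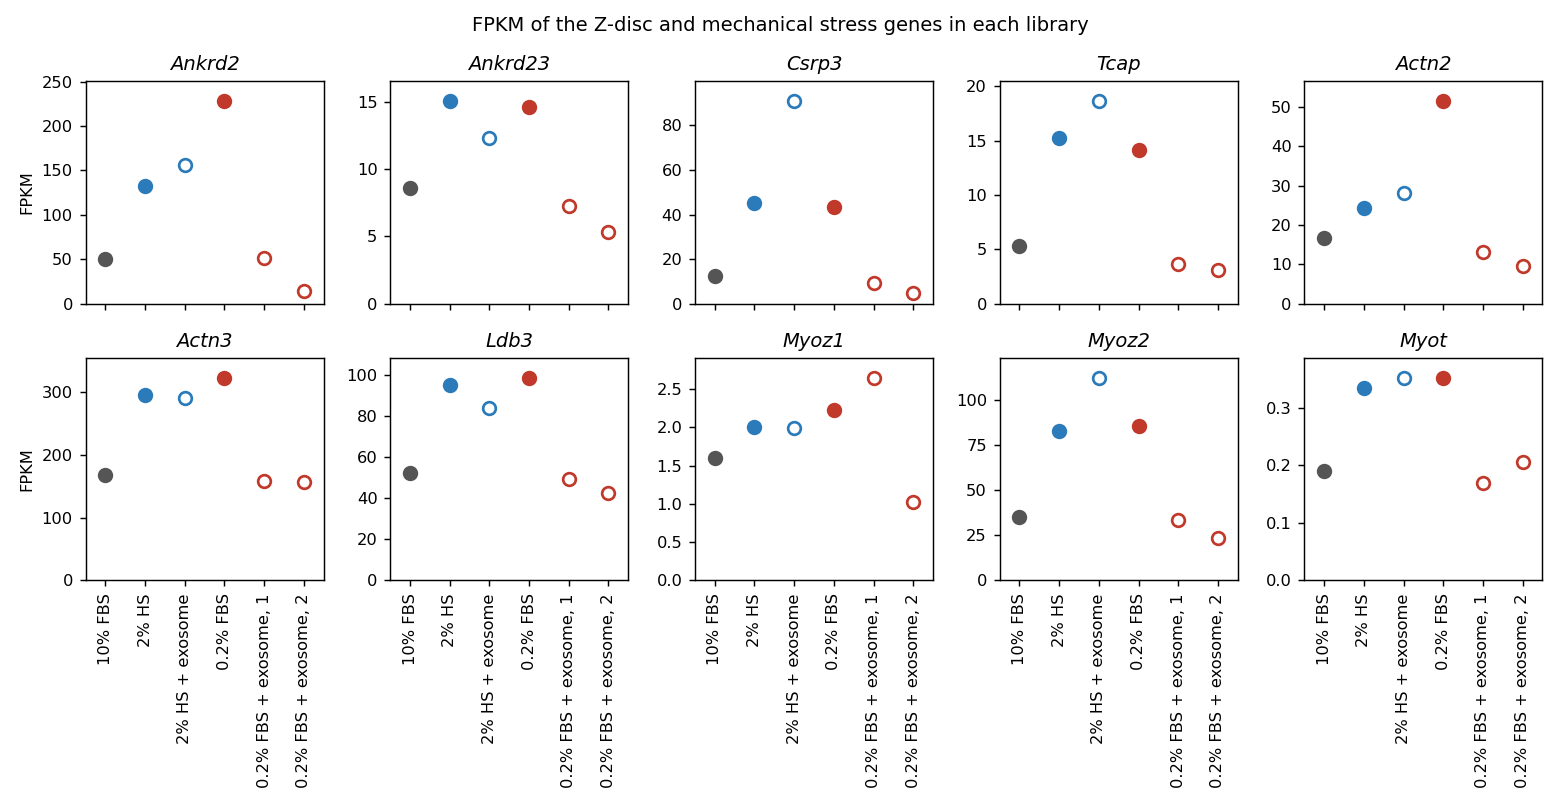
FPKM of each gene (vertical axis, linear from 0, scaled separately for each gene) in the 6 libraries (horizontal axis). Filled points are libraries without added exosomes and open points libraries with them; grey is 10% FBS, blue 2% HS and red 0.2% FBS. Ankrd2 and Actn2 were highest in 0.2% FBS (228 and 51.4 FPKM) and Csrp3 in 2% HS + exosome (90.9 FPKM).

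The titin-binding ankyrin repeat proteins are encoded by Ankrd2 and Ankrd23, with Ankrd1 as the closest relative. Ankrd2, at chr19:42036000-42045110 on the plus strand (mm10), measured 49.7 FPKM in 10% FBS, 132 in 2% HS, 156 in 2% HS + exosome and 228 in 0.2% FBS. In 0.2% FBS + exosome it was 51.4 in replicate 1 and 14.3 in replicate 2. Replicate 1 thus sat at the level of growth medium and replicate 2 well below it. The difference between these replicates, −1.77 on the log2 scale, was the 4th lowest of the 10731 entries, so the size of the Ankrd2 response is poorly fixed (−2.13 and −3.90 in the single libraries). An estimated 453 reads stand behind its lowest value and 7828 behind its highest. Ankrd23, at chr1:36530188-36536883 on the minus strand, was at 8.60 FPKM in 10% FBS, 15.0 in 2% HS, 12.3 in 2% HS + exosome, 14.6 in 0.2% FBS, and 7.22 and 5.31 with exosomes in 0.2% FBS. Its lowest levels were in these last libraries, and its range over all libraries was 2.83-fold against 15.9-fold for Ankrd2. Of the 75-base stretches of its transcripts, 73.0% also occur in Gm42417, an overlapping gene model on the same strand that the table does not list, so its reads are less surely its own.

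Ankrd1, the cardiac ankyrin repeat protein, was the most abundant of the family, with 431 FPKM in 10% FBS, 1066 in 2% HS, 1205 in 2% HS + exosome, 942 in 0.2% FBS, and 353 and 229 in 0.2% FBS + exosome. It differed by −1.72 with exosomes in 0.2% FBS and by 0.18 in 2% HS, lower and higher in the same media as Ankrd2. The balance within the family was not constant. Ankrd2 made up 10.2% of the summed FPKM of Ankrd1, Ankrd2 and Ankrd23 in 10% FBS, 10.9% in 2% HS, 11.4% in 2% HS + exosome and 19.2% in 0.2% FBS. With exosomes in 0.2% FBS it made up 12.5% and 5.75%.

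Csrp3 encodes muscle LIM protein and Tcap telethonin, which sit together at the titin end of the Z-disc. Csrp3, at chr7:48830398-48848033 on the minus strand, measured 12.5 FPKM in 10% FBS, 45.3 in 2% HS, 90.9 in 2% HS + exosome and 43.4 in 0.2% FBS. With exosomes in 0.2% FBS it was at 9.08 and 4.84 FPKM. Its level was thus about equal in both differentiation media, highest where exosomes joined horse serum and lowest where they joined 0.2% FBS, an 18.8-fold range that was the widest of the 10 genes. Between 114 and 2163 estimated reads stand behind these values. Tcap, at chr11:98383811-98384953 on the plus strand, was at 5.30 FPKM in 10% FBS, 15.3 in 2% HS, 18.6 in 2% HS + exosome, 14.2 in 0.2% FBS, and 3.68 and 3.04 with exosomes in 0.2% FBS. Both exosome libraries of 0.2% FBS were below growth medium, and the replicates were closer than for Csrp3 (ratios of 1.21 and 1.88).

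The relatives of Csrp3 went the other way. Csrp1, the widely expressed family member found on actin bundles, was at 171 FPKM in 10% FBS, 130 in 2% HS, 120 in 2% HS + exosome and 126 in 0.2% FBS, and at 200 and 190 with exosomes in 0.2% FBS. Csrp2 was at 32.6, 22.7, 17.3 and 23.0 FPKM in the same first 4 conditions and at 28.7 and 38.3 in 0.2% FBS + exosome. Csrp3 therefore formed 5.79% of the summed FPKM of the family in 10% FBS, 22.9% in 2% HS, 39.8% in 2% HS + exosome and 22.5% in 0.2% FBS. In the libraries of 0.2% FBS + exosome this share was 3.81% and 2.07%. No 75-base stretch of Csrp3 occurs in another annotated gene, and the same holds for the other 8 genes besides Ankrd23. Trimmed reads can be shorter, and their mapping was not examined.

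Actn2 and Actn3 encode the sarcomeric alpha-actinins, Actn3 the form of fast fibres, and Actn1 and Actn4 the non-muscle forms. Actn3, at chr19:4861216-4877909 on the minus strand, was the highest of the 10 genes in every library, with 169 FPKM in 10% FBS, 296 in 2% HS, 292 in 2% HS + exosome, 322 in 0.2% FBS, and 159 and 157 in 0.2% FBS + exosome. The exosome libraries of 0.2% FBS were thus almost at the level of growth medium and nearly equal to each other. Actn2, at chr13:12269426-12340760 on the minus strand, measured 16.5 FPKM in 10% FBS, 24.3 in 2% HS, 28.0 in 2% HS + exosome and 51.4 in 0.2% FBS. With exosomes in 0.2% FBS it was at 13.1 and 9.62. The single 0.2% FBS library stood above all the others for this gene. The ratio of Actn3 to Actn2 was 6.27 there, against 10.2 in 10% FBS, 12.2 in 2% HS, 10.4 in 2% HS + exosome, and 12.1 and 16.3 in 0.2% FBS + exosome.

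The non-muscle actinins varied less. Actn1 ranged from 91.5 to 143 FPKM and Actn4 from 128 to 169, and their mean differences with exosomes in 0.2% FBS were 0.37 and 0.09. The sarcomeric pair made up 44.0% of the summed FPKM of all 4 actinins in 10% FBS, 54.8% in 2% HS, 55.0% in 2% HS + exosome and 62.2% in 0.2% FBS. With exosomes in 0.2% FBS the share was 36.9% and 41.3%, below that of growth medium in both libraries.

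**Figure D2:**
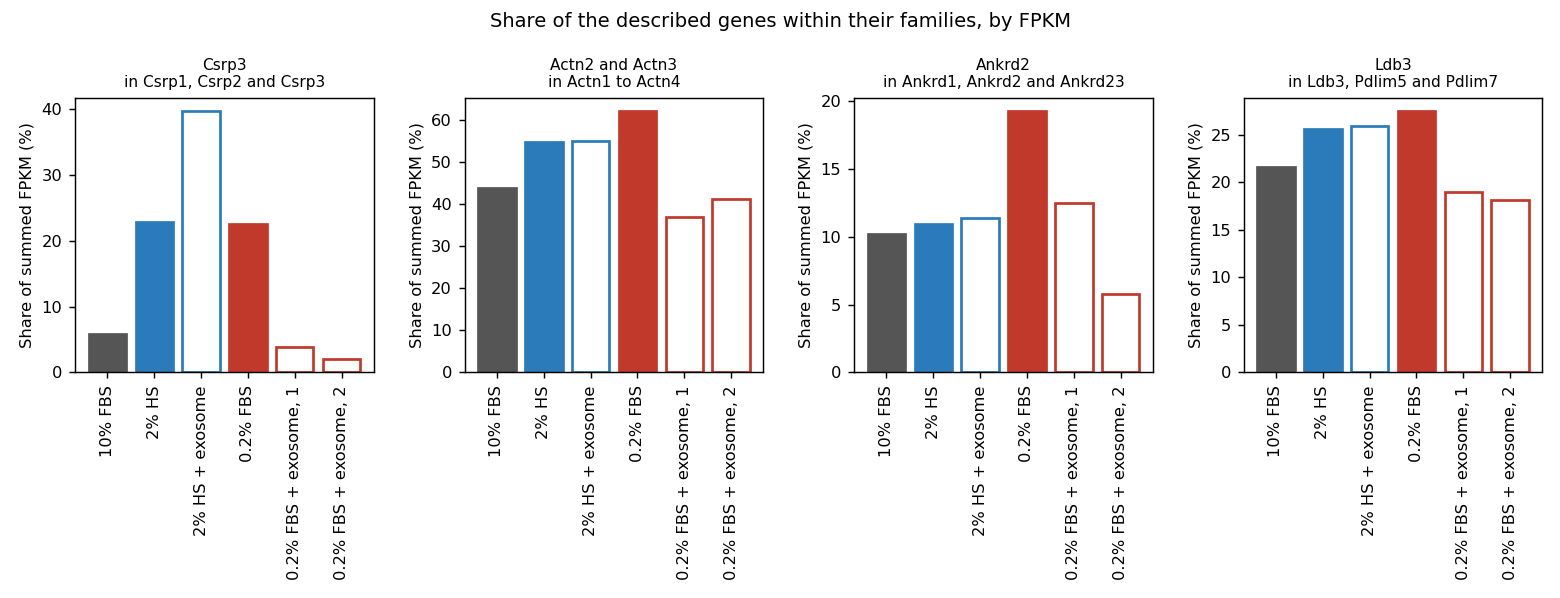
Share (percent, vertical axis from 0) of the described genes in the summed FPKM of their family in each of the 6 libraries, for Csrp3, the sarcomeric actinins, Ankrd2 and Ldb3. Filled bars are libraries without added exosomes and outlined bars libraries with them. Csrp3 spans 2.07% to 39.8%, while Ldb3 spans 18.2% to 27.5%.

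Ldb3 encodes ZASP, a PDZ-LIM protein that binds alpha-actinin. At chr14:34526603-34588682 on the minus strand, it measured 52.2 FPKM in 10% FBS, 95.3 in 2% HS, 84.2 in 2% HS + exosome, 98.6 in 0.2% FBS, and 49.4 and 42.5 in 0.2% FBS + exosome. Control libraries of both differentiation media were about equal, and the exosome libraries of 0.2% FBS were just below growth medium. Its share in the summed FPKM of Ldb3, Pdlim5 and Pdlim7, the enigma-type PDZ-LIM genes, was 21.7% in 10% FBS, 25.6% in 2% HS, 25.9% in 2% HS + exosome, 27.5% in 0.2% FBS, and 19.0% and 18.2% in 0.2% FBS + exosome. Pdlim3, which encodes another alpha-actinin binding protein of the Z-disc, was at 35.5 FPKM in 10% FBS, 68.3 in 2% HS, 63.0 in 2% HS + exosome, 91.4 in 0.2% FBS, and 35.5 and 24.7 in 0.2% FBS + exosome. The remaining PDZ-LIM relatives were lower by at most 0.70 on the log2 scale with exosomes in 0.2% FBS.

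Myozenins bind both alpha-actinin and the phosphatase calcineurin. Myoz2, the form of slow and cardiac muscle, lies at chr3:123006206-123035015 on the minus strand. It was at 35.0 FPKM in 10% FBS, 82.8 in 2% HS, 112 in 2% HS + exosome, 85.7 in 0.2% FBS, and 33.3 and 23.7 in 0.2% FBS + exosome. Like Csrp3 it was highest in 2% HS + exosome, by a smaller margin. Myoz1, the form of fast muscle at chr14:20649107-20656540 on the minus strand, was scarce and measured 1.60 FPKM in 10% FBS, 2.00 in 2% HS, 1.99 in 2% HS + exosome, 2.23 in 0.2% FBS, and 2.64 and 1.03 in 0.2% FBS + exosome. Its exosome replicates lay on either side of the control, and only 38 to 101 estimated reads stand behind its values. Myoz2 made up between 92.6% and 98.2% of the summed FPKM of the 3 myozenin genes in all libraries, with Myoz3 below 0.05 FPKM.

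Myot encodes myotilin, which binds alpha-actinin and filamin C. At chr18:44334074-44355724 on the plus strand, it was at 0.190 FPKM in 10% FBS, 0.334 in 2% HS, 0.351 in 2% HS + exosome, 0.351 in 0.2% FBS, and 0.169 and 0.206 in 0.2% FBS + exosome. An estimated 12 to 26 reads stand behind each of these values, and its differences rest on these few reads. Its relative Palld, palladin, was at 43.9 to 63.0 FPKM, and Myot never exceeded 0.77% of the summed FPKM of Myot, Mypn and Palld.

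The comparison of 2% HS with 10% FBS sets 1 library against 1, neither of which was in the contrast on which the genes were chosen. Its limma test takes its only residual degree of freedom from the 2 libraries of 0.2% FBS + exosome, which were in that contrast and whose spread may be technical, so its p-values hold only as far as that spread applies to single libraries of other conditions. All 10 genes were higher in 2% HS, and 4 of the 9 measured above the minimum were past the fold threshold (Csrp3, Ankrd2, Tcap and Myoz2), beside 1.79% of all entries. Their median difference was 0.86, beside −0.08 for all entries. Tcap differed by 1.37 (SE 0.20, limma adjusted p = 0.0416), and 0.401% of all entries had an adjusted p under 0.05 upward. This p depends on the 2 libraries of 0.2% FBS + exosome, which were used to choose the genes. Their spread for Tcap gave 1 residual degree of freedom, against 7.28 prior degrees of freedom for their spread over all entries. The p is therefore a value of the model, set mostly by the spread over all entries, and shows no change between replicates of these media. At an unadjusted p under 0.05, 7 of the 9 genes passed, as did 1805 of the 10731 entries. Csrp3 differed by 1.78 (SE 0.33, limma adjusted p = 0.0626) and Myoz2 by 1.22 (SE 0.26, limma adjusted p = 0.0880). For Ankrd2, at 1.39, the SE of 0.65 came from its unequal exosome replicates and the limma adjusted p was 0.326.

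Smaller differences were seen for Ldb3 (0.86), Actn3 (0.81), Ankrd23 (0.74), Actn2 (0.53) and Myoz1 (0.21), with limma adjusted p between 0.127 and 0.808. The first 3 lie just outside the fold threshold and Myoz2 just inside it. Over the alternatives the adjusted p of Tcap ranged from 0.0166 to 0.414. Its call was lost without the mean-variance trend (adjusted p = 0.0946), without the filter on low values (0.414) and with both 2% HS libraries fitted as 1 group (0.0512), settings in which limma called 1 of 10731, 0 of 16450 and 10 of 10731 entries in all, against 55 of 10731 as first fitted. After scaling all libraries to the same 75th percentile Csrp3 (0.0278) and Myoz2 (0.0455) were called as well, and so were 205 of the 10731 entries. The calls of these genes thus moved with the number called over the whole table.

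Growth medium was compared with 0.2% FBS as a description, since the 0.2% FBS library was used in choosing the genes. All 10 genes were higher in 0.2% FBS than in 10% FBS, 5 of 9 past the fold threshold, beside 1.79% of all entries. They were Ankrd2 (2.17), Csrp3 (1.72), Actn2 (1.58), Myoz2 (1.27) and Tcap (1.27), with Actn3 (0.93) and Ldb3 (0.91) just outside. Between the control libraries of both differentiation media, Actn2 and Ankrd2 were the genes that stood apart. Actn2 was 2.11-fold and Ankrd2 1.72-fold higher in 0.2% FBS than in 2% HS, the 20th and 61st highest differences of 10731 entries. The FPKM ratios of the other 8 genes were between 0.93 and 1.11.

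With exosomes in 0.2% FBS the genes were set against growth medium again. None of the 9 was past the fold threshold for the mean of both libraries, beside 0.0932% of all entries that were lower by that much. The lowest were Ankrd2 at −0.84 and Csrp3 at −0.82, followed by Tcap at −0.53 and Actn2 at −0.52. This rests on replicate 1, in which Ankrd2 differed from 10% FBS by 0.05 and Csrp3 by −0.42. Replicate 2 alone was lower by 1.73 for Ankrd2 and by 1.21 for Csrp3, which puts 2 of the 9 genes past the threshold, with 9 of all 10731 entries lower by that much in this library.

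**Figure D3:**
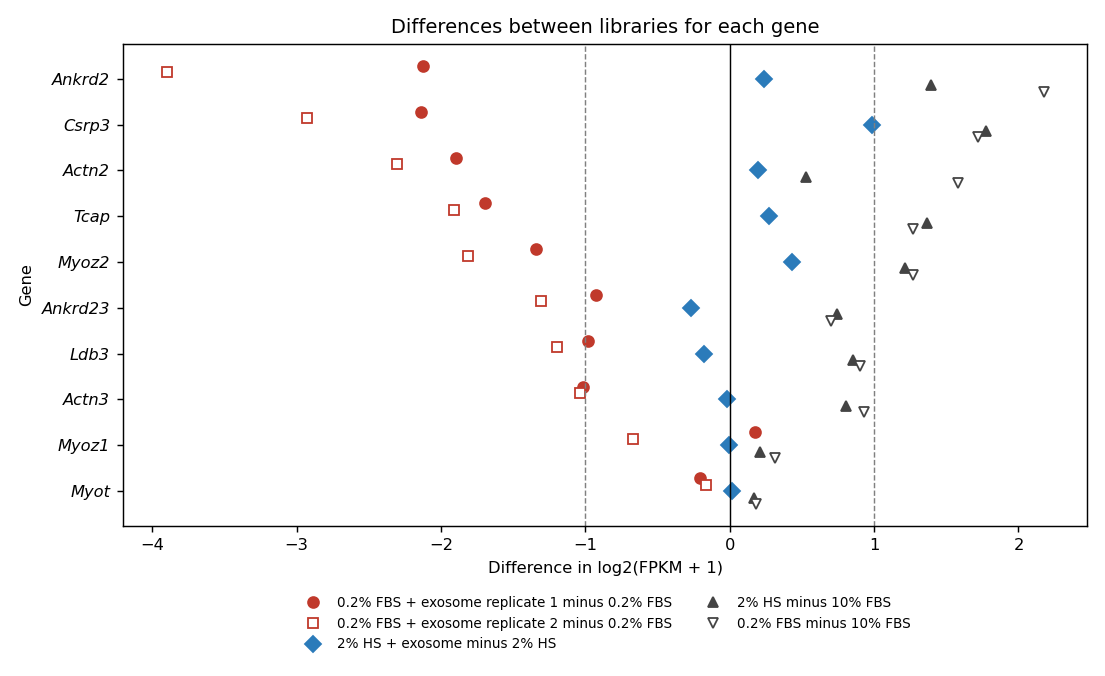
Differences in log2(FPKM + 1) between libraries (horizontal axis) for the 10 genes (vertical axis, ordered by the mean exosome difference in 0.2% FBS). Red circles and open squares are exosome replicates 1 and 2 against 0.2% FBS, blue diamonds 2% HS + exosome against 2% HS, and grey triangles 2% HS (filled) and 0.2% FBS (open) against 10% FBS; dashed lines mark −1 and 1. Csrp3 lies at 0.99 with exosomes in 2% HS and at −2.14 and −2.93 in 0.2% FBS.

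Exosomes in 2% HS gave a different picture, again from 1 library against 1, with the limma spread taken from the same 2 libraries of 0.2% FBS + exosome. In FPKM, the ratio of 2% HS + exosome to 2% HS was 2.01 for Csrp3, 1.35 for Myoz2, 1.22 for Tcap, 1.18 for Ankrd2 and 1.15 for Actn2. It was 0.98 for Actn3, 0.88 for Ldb3 and 0.82 for Ankrd23. None of the 9 genes was past the fold threshold, which 0.354% of all entries passed upward and 0.298% downward. Csrp3, at 0.99, was just outside, the 41st highest of all entries, and crossed it with a pseudocount of 0.1 (1.00) or after scaling (1.02). The median of the 9 genes was 0.20, beside −0.04 for all entries. limma called 0 of the 9 genes at an adjusted p under 0.05, beside 0.0839% of all entries. At an unadjusted p under 0.05, 1 of the 9 genes passed (Csrp3, SE 0.33, limma adjusted p = 0.751), as did 507 of the 10731 entries. None of the 9 genes was called under the limma alternatives either.

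The other proteins of the Z-disc were followed in lists of further genes. Of 19 other Z-disc genes, 17 had a mean of at least 1 FPKM, and with exosomes in 0.2% FBS 8 of these were lower past the threshold and 0 higher, beside 2.25% of all entries lower and 1.8% higher. They were Murc (−2.11, encoding the caveolar protein cavin-4), Smpx (−2.01), Xirp1 (−1.76, an actin-binding Xin repeat protein), Synpo2l (−1.60), Cryab (−1.36, the small heat shock protein alpha-B crystallin), Nrap (−1.30), Synpo2 (−1.13) and Ttn (−1.12, titin). In replicate 1 Ttn was at −0.77, so 7 passed in each library, beside 1.61% of all entries. The list's median was −0.92. Against 10% FBS, 3 of the 17 were higher past the threshold in 2% HS (Murc, Smpx and Xirp1) and 5 in 0.2% FBS, where Synpo2l and Cryab joined them, beside 1.79% of all entries in each comparison. With exosomes in 2% HS, 0 passed in either direction, beside 0.354% of all entries higher and 0.298% lower.

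Not every Z-disc gene shared this pattern. Fhl2, a LIM protein, was 0.59 higher with exosomes in 0.2% FBS, and Bag3, a co-chaperone of filamin turnover, differed by 1.07 in replicate 1 and by −0.06 in replicate 2. Genes of capping protein (Capza1, Capza2 and Capzb), which caps actin filament ends at the Z-disc, differed by 0.14, −0.42 and 0.13. Of the 14 close relatives, 12 reached the minimum and 2 of these, Ankrd1 and Pdlim3, were lower past the threshold with exosomes in 0.2% FBS, with a median of −0.24 for the list. The share of all entries lower by that much was 2.25%. Among 11 genes of titin-linked ubiquitin ligases and calcineurin signalling, 10 reached the minimum and 1 was lower past the threshold, beside the same 2.25%. It was Trim54 (−1.24), a ring finger protein that binds titin and microtubules. The calcineurin subunits Ppp3ca, Ppp3cb and Ppp3r1 differed by 0.28, 0.03 and −0.05, and the calcineurin-responsive Rcan1 by 0.03. In 2% HS against 10% FBS, Trim54 and Trim63, a muscle atrophy ubiquitin ligase, were each 1.07 higher.

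Genes next to these in the genome were read in the same libraries. Ubtd1, 1.4 kb from Ankrd2 on the same strand, was between 53.8 and 69.4 FPKM in all libraries, and Ankrd39, 0.62 kb from Ankrd23, between 3.36 and 4.29. Stard3, 2.7 kb from Tcap, was 0.56 higher on the log2 scale with exosomes in 0.2% FBS, where Tcap was 1.80 lower. Zdhhc24, 0.76 kb from Actn3, differed by −0.07. Of the neighbours within 10 kb, Synpo2l, itself a Z-disc gene 2.4 kb from the scarce Myoz1 on the same strand, was past the fold threshold with exosomes in 0.2% FBS (−1.60). Synpo2l measured 48.3 FPKM in 10% FBS, 95.1 in 2% HS, 94.1 in 2% HS + exosome, 113 in 0.2% FBS, and 40.5 and 33.5 in 0.2% FBS + exosome. Farther away, Synpo2, another Z-disc gene 41.5 kb from Myoz2 on the same strand, was also lower with exosomes in 0.2% FBS, at −1.04 and −1.22 in the single libraries, and 0.82 higher in 2% HS and 0.96 higher in 0.2% FBS than in 10% FBS.

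Likeness between expression profiles was measured over the 6 libraries as the root mean square difference of log2(FPKM + 1) after each gene was centred on its own mean, so that smaller values mean more similar profiles. Actn3, Ldb3 and Ankrd23 formed the tightest group, with 0.078 between Actn3 and Ldb3 and 0.097 between Ankrd23 and Ldb3. Tcap and Myoz2 were 0.15 apart. Ankrd2 and Csrp3 had no close member, since Csrp3, the nearest to Ankrd2, was 0.57 away and Tcap, the nearest to Csrp3, 0.52. Profiles were centred but not scaled, so the distance also grows with the range of a gene. That range was 18.8-fold for Csrp3 and 15.9-fold for Ankrd2. The scarce Myoz1 and Myot were 0.26 apart and also stood off from the rest. From the mean profile of the 9 genes above the minimum, Csrp3 was 0.72 away, Myot 0.65, Myoz1 0.63 and Ankrd2 0.61. Actn3 came next at 0.31. The gene outside the set closest to Csrp3 was Cox6a2, a muscle subunit of cytochrome c oxidase, at 0.29, which was at 146 FPKM in 2% HS and 311 in 2% HS + exosome. Closest to Ankrd2 was Tceal7 at 0.34, to Actn2 the cardiac actin gene Actc1 at 0.20, to Ankrd23 the troponin gene Tnnt2 at 0.051 and to Ldb3 the cell cycle inhibitor gene Cdkn1a at 0.052. Tubb2a was nearest to Actn3 (0.054), Tigit to Tcap (0.062), Fn3k to Myoz2 (0.067), Wisp1 to Myoz1 (0.12) and BC003965 to Myot (0.013), where the scale is nearly flat for so low a gene. The 5 genes nearest to the mean profile of the 9 were Tnnc2, the fast skeletal troponin C gene, at 0.052, and Trim72, Cldn2, Bex1 and Pkhd1 at 0.081 to 0.092. The median gene outside the set was 0.81 away, but the nearest genes lie below the median by definition. The 9 genes were chosen on the 0.2% FBS libraries that these profiles include, so nothing is read from this gap.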

How the data were processed

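The authors made the libraries with a stranded mRNA kit, trimmed 75-base single-end reads with cutadapt 1.9.1, mapped them to mm10 with TopHat2 2.1.0 and computed FPKM with Cufflinks, and deposited these values in a single table. The strand setting and annotation behind the FPKM are not given in the sources used here. From them, log2(FPKM + 1) was computed, with a minimum mean of 1 FPKM over the libraries. The genes, gene lists and tests were chosen with earlier results of these data known. Named genes are the 10 genes, list genes past the threshold, close relatives, neighbours within 10 kb and the nearest profiles; list genes named although inside the threshold were chosen after their values were seen. limma 3.58.1 fitted 1 mean per condition to 6 libraries with a mean-variance trend and Benjamini-Hochberg adjustment over 10731 entries, with 1 residual degree of freedom. Without counts, no interval was computed for single values. Depth was estimated from 396 to 460 low values per library, taken from 2442 genes, with 200-base fragments assumed. Of these values, 73.3% to 75.7% lay within 0.1 of a whole read, where evenly spread values give 20%. Estimated reads behind the values of the 10 genes assume the transcript with the longest coding sequence. All of these genes but Tcap have more than 1 annotated transcript, so these read numbers are approximate. Positions come from GENCODE vM21 and promoters from RefSeq.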

Additional observations from a re-analysis of the deposited data

Results flagged for a closer look

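For 6 genes both exosome libraries in 0.2% FBS lay below the control of that medium while the exosome library in 2% HS lay above its own. Of these, 5 are among the 9 genes above the minimum, where 1293 of all 10731 entries (12%) showed the same opposite signs, and Myot, at 0.02 in 2% HS, is below it. Since the lower values in 0.2% FBS were used to choose the genes, nothing is read from this count. The difference of the exosome effects, 0.2% FBS minus 2% HS on the log2(FPKM + 1) scale, was −3.52 for Csrp3, −3.25 for Ankrd2, −2.30 for Actn2, −2.07 for Tcap, −2.01 for Myoz2 and −0.20 for the barely detected Myot. This difference between media was not tested, because the genes were chosen on the values in 0.2% FBS. The species and the concentration of serum differ together between these media and cannot be told apart.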

How the results depend on the processing

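The counts and medians in 0.2% FBS and against growth medium kept their direction with a pseudocount of 0.1, with values below 1 FPKM raised to 1, and after scaling to the same 75th percentile. All 17 differences of single genes past the fold threshold kept their sign in 67 of 67 alternative values, and 65 of these stayed past 1; the exceptions were Ankrd23 (−0.93) and Ldb3 (−0.98) without exosome replicate 2. With exosomes in 2% HS, 1 gene in place of 0 passed with a pseudocount of 0.1, with the raised floor and after scaling. In 0.2% FBS + exosome against 10% FBS, the count ranged from 0 to 2 when either replicate was left out. limma called 0 of the genes in 2% HS against 10% FBS without the filter, without the trend and with the 2% HS libraries as 1 group, and 3 after scaling, against 1. Over all entries it called 0, 1, 10 and 205 in these settings, against 55. The cause of these changes was not tested. Scaling moved the median of all entries with exosomes in 0.2% FBS from 0.14 to 0.042. No paired analysis was possible because the conditions share fewer than 2 replicate numbers. Single libraries limit every contrast, and Myoz1, Myot and the lowest Tcap values rest on few estimated reads.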
